A study of Saccharomyces kudriavzevii and Saccharomyces cerevisiae and Kluyveromyces marxianus with 12 samples.

Results

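The 9 cyclin genes of the *S. cerevisiae* cell cycle, *CLN1* to *CLN3* and *CLB1* to *CLB6*, and *SIC1*, the gene of the inhibitor of B-type cyclin kinase, were followed through a heat shock. They were chosen by name and make up 10 of the 6017 *S. cerevisiae* genes in the count files, and all 10 passed the filter on low counts. Of the 12 mRNA libraries in the series, which cover 3 yeasts, the 4 from *S. cerevisiae* were used here. BY4742 is a haploid MATα laboratory strain that lacks *URA3*, *LEU2* and *LYS2* and carries a partial deletion of *HIS3*, and these alleles are shared by heat-shocked and control cells. The cells were grown at 33 °C in rich glucose medium to early log phase and then held for 8 minutes at 40 °C (heat shock, 2 biological replicates) or at 33 °C (control, 2 biological replicates). The cultures were not synchronised by any step that the labels or the methods describe, so each value is an average over cells at all stages of the cycle.

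Gene totals ran between 18911098 and 23476002 reads in the 4 libraries. Listed heat response genes such as *HSP104* and *SSA4* were higher in 10 of 10 cases. No count fell on *URA3*, *LEU2* or *LYS2* in any library, and *HIS3* had between 109.6 and 169 TPM (the deposited level, which is corrected for gene length). The 4 markers of α cells fell, with summed levels of 207 to 253 TPM in heat-shocked cells and 3272 to 3331 TPM in control cells, and 5 of the 6 markers of **a** cells rose, with summed levels of 66.7 to 73.9 TPM and 31.0 to 33.1 TPM, and none of these 6 was listed at 0. The part of these mating-type genes in the values below was not tested. Of all genes, 33.7% were higher and 32.7% lower in the test described below, and on the TPM scale the median gene was higher by 0.26 (log2).

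Cyclins switch on the cyclin-dependent kinase Cdc28, and which cyclin is present decides which step of the division cycle the kinase drives. Cln3 acts in G1 and helps to release the transcription factors SBF and MBF from their inhibitor Whi5. SBF and MBF then switch on *CLN1* and *CLN2*, whose products drive budding and Start, and *CLB5* and *CLB6*, whose products start DNA replication. Clb3 and Clb4 act in early mitosis and Clb1 and Clb2 in later mitosis. Sic1 holds the Clb kinases in check in G1 until Cln kinases mark it for destruction through the ubiquitin ligase SCF with Cdc4. A transient arrest in G1 is a known response of budding yeast to heat.

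Of the 9 cyclin genes, 8 fell after heat shock, *CLN3* did not pass the test and *SIC1* rose. The test was edgeR's quasi-likelihood test, with p-values adjusted by Benjamini and Hochberg's method and a threshold of 0.05. It called 9 of the 10 genes, against 66.4% of all 5786 genes tested, with 8 lower (32.7% of all genes) and 1 higher (33.7% of all genes). At a threshold of 0.01 it called 8 lower (26.4% of all genes), and *SIC1* (25.6% of all genes being higher) no longer passed. At least 2-fold falls were seen for 6 of the 10, against 13.5% of all genes. The median log2 fold change was -1.29 over the 10 genes and 0.03 over all genes tested. CPM, the read counts scaled to library size by TMM, did not overlap between heat-shocked and control libraries for any of the 10 genes, 9 being lower (41.3% of all genes) and 1 higher (44.1%), so that non-overlap by itself was common in these data. In RNA from whole cultures, fewer cells at the stage that expresses a gene and less of its RNA in each cell cannot be told apart.

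**Figure D1:**
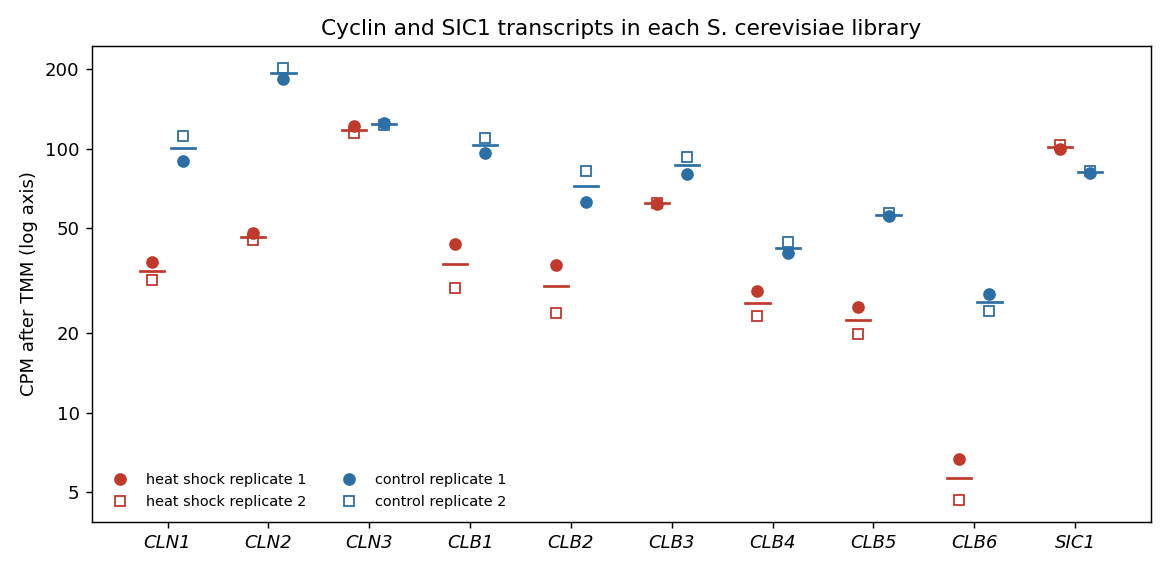
CPM after TMM scaling (log axis) of each gene in each library, with heat shock at 40 °C in red, left of control at 33 °C in blue, filled circles for replicate 1, open squares for replicate 2 and bars for means. *CLN2* sits at 45.0 and 47.9 CPM after heat shock against 183 and 203 CPM in control cells, while the 4 *CLN3* points lie between 114 and 125 CPM.

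The G1 cyclins *CLN1* and *CLN2* are a pair of related genes with overlapping roles at Start. *CLN2* (YPL256C, R64 chromosome XVI, 64977 to 66614, minus strand, 1 coding exon) had 47.9 and 45.0 CPM in heat-shocked replicates 1 and 2, against 183 and 203 CPM in control replicates 1 and 2. The heat-shocked libraries were close to each other and far below both controls. *CLN2* fell by 2.05 on the log2 scale (standard error 0.10), or 4.15-fold (edgeR, adjusted p = 5.88e-06). Of all genes tested, 5.58% had a lower log2 fold change. *CLN1* (YMR199W, chromosome XIII, 662644 to 664284, plus strand, 1 coding exon) had 37.1 and 31.8 CPM after heat shock, against 89.9 and 112 CPM in control cells, with the controls further apart than those of *CLN2*. Its log2 fold change was -1.55 (standard error 0.15, edgeR, adjusted p = 0.000137), a 2.93-fold fall.

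*CLN3*, the G1 cyclin upstream of the others, did not pass the test. *CLN3* (YAL040C, chromosome I, 65778 to 67520, minus strand, 1 coding exon) had 122 and 114 CPM in heat-shocked cells, against 125 and 123 CPM in control cells. Its log2 fold change was -0.07 with a 95% interval from -0.26 to 0.13 (standard error 0.08, edgeR, adjusted p = 0.494), which leaves room for a fall to 0.835 or a rise to 1.09 times the control level, but not for a fall of the size seen for *CLN1* or *CLN2*. On the TPM scale the sign was opposite, with 60.5 and 56.0 TPM after heat shock and 50.2 and 52.1 TPM in control cells, because the median gene itself shifted by 0.26 (log2) on that scale. Relative to that shift the TPM ratio of *CLN3* was -0.08 on the log2 scale.

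The make-up of G1 cyclin RNA therefore differed between the conditions, and this does not depend on how libraries are scaled. *CLN3* made up 57.4% and 58.4% of the summed TPM of *CLN1*, *CLN2* and *CLN3* in heat-shocked cells, against 30.1% and 26.9% in control cells. *CLN2* made up 24.0% and 24.4% in heat-shocked cells, against 46.9% and 47.1% in control cells. *CLN1* made up 18.6% and 17.2% in heat-shocked cells, against 23.0% and 26.0% in control cells. The summed TPM of the 3 genes was 105 and 95.9 after heat shock, against 167 and 194 in control cells.

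**Figure D2:**
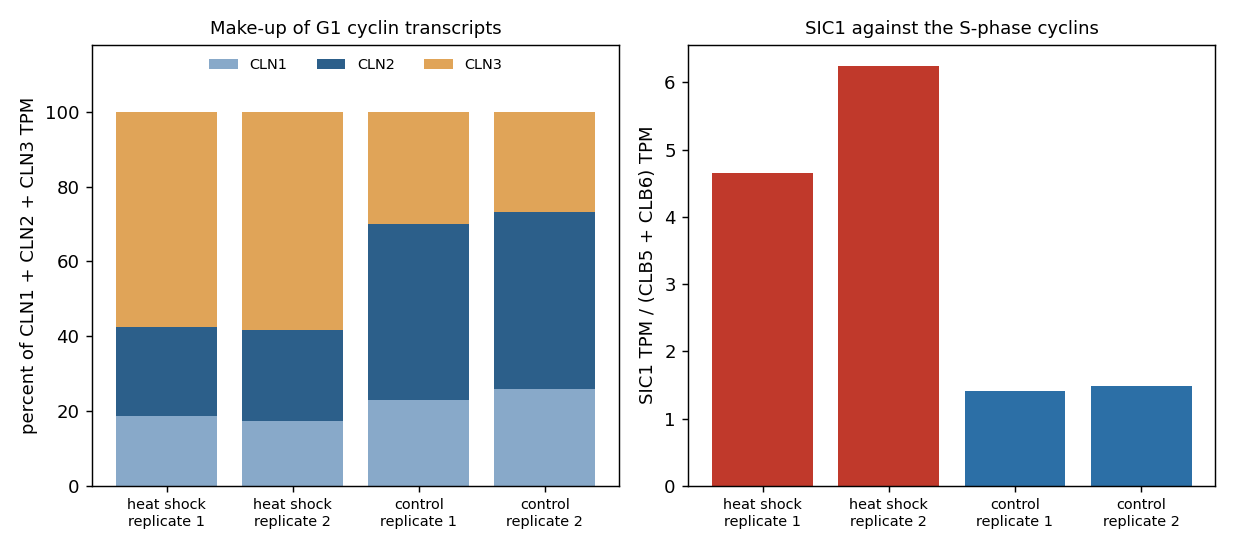
Left, percent of the summed TPM of the 3 G1 cyclin genes taken by each, per library. Right, SIC1 TPM divided by the sum of CLB5 and CLB6 TPM, per library, with heat shock bars in red and control bars in blue. *CLN3* holds 57.4% and 58.4% of the left bars after heat shock against 30.1% and 26.9% in control cells, and the right bars stand at 4.65 and 6.25 against 1.41 and 1.49.

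The promoters of *CLN1*, *CLN2*, *CLB6* and *SIC1* hold short motifs of transcription factors, and a stretch of each is shown as an example. *CLN1*, *CLN2* and *CLB6* fell by at least 2-fold and *SIC1* rose. *CLB1*, *CLB2* and *CLB5* also fell by at least 2-fold, but no stretch of theirs is shown. The SBF and MBF motifs searched here were not found upstream of *CLB1*, *CLB2* or *CLB5*. The sequences were read from R64, 5′ to 3′ on the strand of the gene, upstream of the start codon. Capitals mark CACGAAA (the SBF element SCB) and its variant CGCGAAA in *CLN2*, ACGCGT (the MBF element MCB) in *CLN1* and *CLB6*, GTAAACA (a forkhead motif) in *CLB6*, and CCAGC or its reverse complement (the core of the site of Swi5) in *SIC1*.
CLN2, chrXVI:67135-67244, minus strand, 630 to 521 bases upstream: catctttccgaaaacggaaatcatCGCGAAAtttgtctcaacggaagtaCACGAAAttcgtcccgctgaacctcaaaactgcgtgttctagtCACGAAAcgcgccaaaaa
CLN1, chrXIII:662004-662073, plus strand, 640 to 571 bases upstream: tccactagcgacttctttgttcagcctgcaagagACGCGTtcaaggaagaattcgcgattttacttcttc
CLB6, chrVII:706832-706921, minus strand, 420 to 331 bases upstream: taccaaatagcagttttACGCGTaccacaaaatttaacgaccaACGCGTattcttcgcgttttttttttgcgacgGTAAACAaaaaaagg
SIC1, chrXII:286630-286689, plus strand, 190 to 131 bases upstream: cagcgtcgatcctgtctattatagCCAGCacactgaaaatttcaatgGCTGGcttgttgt

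The same letters were searched on both strands in the 700 bases upstream of the start codon of 6011 genes, windows that can reach into a neighbouring gene. CACGAAA was found in 9.52% of these windows and, among the 10 genes, in *CLN2* (2 matches) and *SIC1*, whose match ends at the base before the start codon. CGCGAAA was found in 6.84% of the windows and here in *CLN2* and *CLB4*. ACGCGT was found in 6.97% and here in *CLN1* (1 match) and *CLB6* (2 matches). GTAAACA was found in 13.5% and here in *CLB1*, *CLB4* and *CLB6*. CCAGC is common, in 49.7% of all windows, and was found in *CLN1*, *CLB1*, *CLB3*, *CLB4*, *CLB5* and *SIC1*. AGGGG, the stress response element bound by Msn2 and Msn4, was found in 44.4% of all windows and here in *CLN1*, *CLB1*, *CLB2* and *SIC1*. GAANNTTC and TTCNNGAA, pairs of inverted heat shock element units, were found in 26.1% and 28.6% of all windows, GAANNTTC here in *CLN3* and TTCNNGAA in *CLN3*, *CLB2*, *CLB4* and *SIC1*. The palindromic core of the Mcm1 site was found in 63.8% of all windows and in all of the 10 genes but *CLB3* and *SIC1*. These matches describe letters in the reference sequence, and binding was not measured.

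The S-phase cyclins fell with *CLN1* and *CLN2*. *CLB6* (YGR109C, chromosome VII, 705359 to 706501, minus strand, 1 coding exon), which acts early in S phase, had 6.68 and 4.68 CPM in heat-shocked cells, against 28.1 and 24.2 CPM in control cells. These rest on 154 and 88 reads after heat shock and 544 and 570 in control cells, the fewest of the 10 genes. *CLB6* fell by 2.19 on the log2 scale (standard error 0.19), or 4.57-fold (edgeR, adjusted p = 7.89e-05). The order of *CLB6* and *CLN2* depended on the libraries and the scale, since *CLN2* was the lower without control replicate 1 (-2.15 against -2.11 for *CLB6*), without heat shock replicate 2 (-2.03 against -1.99) and as a TPM ratio with a pseudocount of 1 (-1.76 against -1.73). *CLB5* (YPR120C, chromosome XVI, 773875 to 775182, minus strand, 1 coding exon), the main S-phase cyclin, had 25.1 and 19.9 CPM after heat shock, against 55.5 and 57.1 CPM in control cells. Its log2 fold change was -1.32 (standard error 0.12, edgeR, adjusted p = 0.000107), a 2.50-fold fall.

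The mitotic cyclins *CLB1* and *CLB2* also fell, with the widest spread between heat-shocked libraries. *CLB1* (YGR108W, chromosome VII, 703636 to 705051, plus strand, 1 coding exon) had 43.7 and 29.7 CPM in heat-shocked cells, against 96.1 and 110.0 CPM in control cells. Its log2 fold change was -1.49 (standard error 0.19, edgeR, adjusted p = 0.000535). *CLB2* (YPR119W, chromosome XVI, 771653 to 773128, plus strand, 1 coding exon), the main mitotic cyclin, had 36.4 and 24.0 CPM after heat shock, against 63.1 and 82.0 CPM in control cells. Its log2 fold change was -1.26 (standard error 0.22, edgeR, adjusted p = 0.00206). Heat-shocked replicate 2 was the lower of the pair for both genes. Over the 10 genes it was the lower in 8, and control replicate 2 was above control replicate 1 in 8. The shares of all genes with these orders are not given here, so the counts are not read as a trait of the cyclins.

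*CLB3* and *CLB4*, which act between S phase and mitosis, changed least among the B-type cyclins. *CLB4* (YLR210W, chromosome XII, 562008 to 563390, plus strand, 1 coding exon) had 28.9 and 23.2 CPM in heat-shocked cells, against 40.1 and 44.3 CPM in control cells. It fell by 0.70 on the log2 scale (standard error 0.12, edgeR, adjusted p = 0.00248). *CLB3* (YDL155W, chromosome IV, 176773 to 178056, plus strand, 1 coding exon) had 61.6 and 62.6 CPM after heat shock, against 80.2 and 93.2 CPM in control cells. It fell by 0.48 on the log2 scale (standard error 0.11, edgeR, adjusted p = 0.00867). A log2 fold change lower than that of *CLB3* was found for 25.5% of all genes tested. The call of *CLB3* was lost without heat shock replicate 1, at a log2 fold change of -0.47 (edgeR, adjusted p = 0.0771). Together *CLB3* and *CLB4* made up 46.1% and 53.7% of the summed TPM of the 6 *CLB* genes in heat-shocked cells, against 34.0% and 34.6% in control cells.

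**Figure D3:**
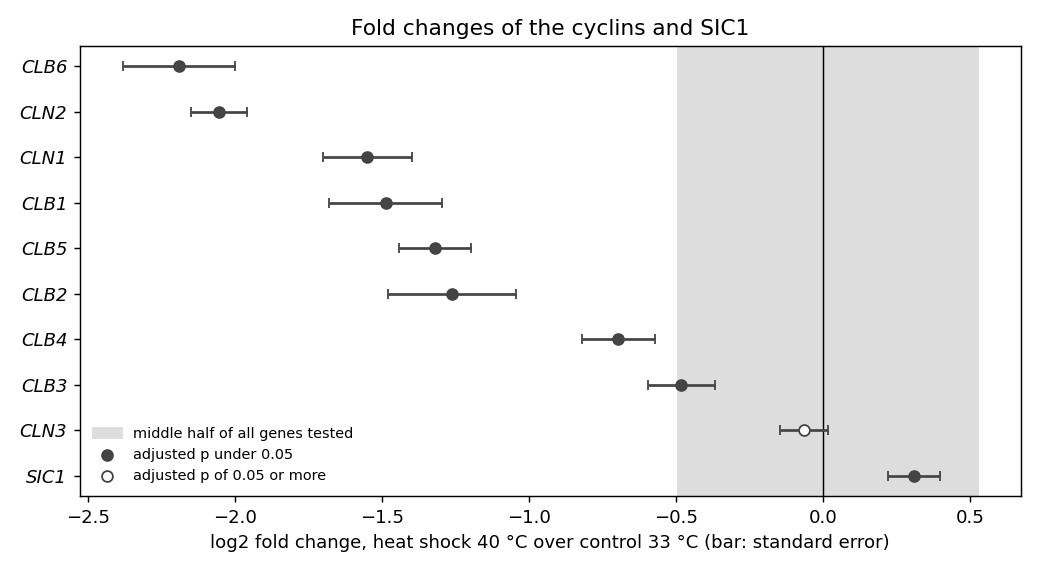
Log2 fold change of each gene, heat shock at 40 °C over control at 33 °C, with bars for the standard error, filled points for genes that passed the edgeR test and an open point for *CLN3*. The grey band spans the quartiles of all 5786 genes tested, -0.49 to 0.53, and 7 of the 8 falls lie outside it, with *CLB3* at -0.48 just inside.

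*SIC1* was the only gene of the 10 that rose. *SIC1* (YLR079W, chromosome XII, 286820 to 287674, plus strand, 1 coding exon) had 99.5 and 103 CPM in heat-shocked cells, against 81.0 and 82.4 CPM in control cells. The libraries of each condition were within a few CPM of each other. The log2 fold change was 0.31 (standard error 0.09), or 1.24-fold, with a 95% interval from 0.10 to 0.52 (edgeR, adjusted p = 0.0186). The call was lost without heat shock replicate 1, at 0.33 (edgeR, adjusted p = 0.125), and without heat shock replicate 2, at 0.26 (edgeR, adjusted p = 0.176). The rise was small among all genes, 65.7% of which had a lower log2 fold change than *SIC1*.

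*SIC1* was also set against the genes of the cyclins that its product inhibits. *SIC1* had 4.65 and 6.25 times the summed TPM of *CLB5* and *CLB6* in heat-shocked cells, against 1.41 and 1.49 times in control cells. Against all 6 *CLB* genes the ratio was 0.779 and 0.988 in heat-shocked cells, against 0.352 and 0.319 in control cells. The *CLN* to *CLB* ratio overlapped between conditions, at 0.816 and 0.923 in heat-shocked cells and 0.884 and 0.868 in control cells. These are ratios of RNA and not of protein.

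The order of levels per length differed between the conditions. In heat-shocked cells *SIC1* stood first (102 ± 1.53 TPM, SD, n = 2), then *CLN3* (58.2 ± 3.18 TPM) and *CLB3* (41.5 ± 0.0396 TPM), each apart from the next in every library. *CLN2*, *CLB1*, *CLN1*, *CLB2*, *CLB4* and *CLB5* followed between 24.4 and 14.8 TPM, and neighbours among these 6 overlapped. *CLB6* was last at 4.27 ± 1.11 TPM. In control cells *CLN2* stood first (84.9 ± 9.32 TPM) and *SIC1* second (68.9 ± 3.36 TPM). *CLB1*, *CLN3*, *CLB3*, *CLN1*, *CLB2* and *CLB5* followed between 52.5 and 31.0 TPM with overlapping neighbours, then *CLB4* (22.0 ± 2.32 TPM) and *CLB6* (16.5 ± 1.16 TPM). *CLN2* thus ranked 4 after heat shock and 1 in control cells, and *CLN3* ranked 2 and 4.

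8 of the cyclin genes form 4 paralog pairs, and the genes of a pair were compared within each library as the log2 ratio of TPM plus 1. The ratio of *CLN1* to *CLN2* was -0.36 and -0.48 in heat-shocked cells, against -1.01 and -0.85 in control cells, as *CLN2* fell further than *CLN1*. The ratio of *CLB5* to *CLB6* was 1.54 and 1.64 in heat-shocked cells, against 0.75 and 1.00 in control cells, as *CLB6* fell further than *CLB5*. Differences were smaller in the other pairs. *CLB1* to *CLB2* was 0.31 and 0.35 in heat-shocked cells against 0.65 and 0.47 in control cells, and *CLB3* to *CLB4* was 1.16 and 1.48 in heat-shocked cells against 1.07 and 1.15 in control cells. In none of the 4 pairs did the conditions overlap, but an exact two-sided permutation test of 2 against 2 libraries cannot go below p = 0.333, which each pair gave (0.333 also after adjustment over the 4 pairs).

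**Figure D4:**
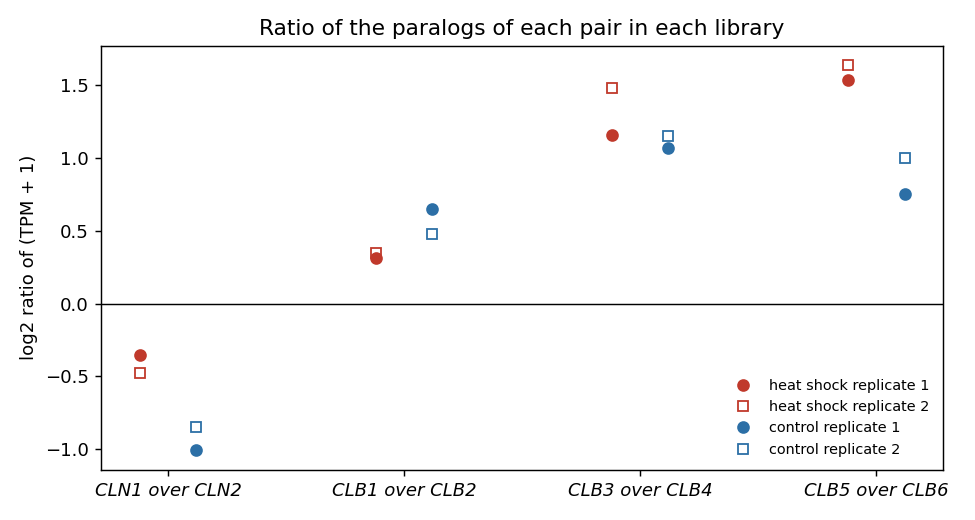
Log2 ratio of TPM plus 1 between the genes of each paralog pair in each library, with heat shock in red, left of control in blue, circles for replicate 1 and squares for replicate 2. *CLB5* over *CLB6* lies at 1.54 and 1.64 after heat shock against 0.75 and 1.00 in control cells, the widest gap of the 4 pairs.

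Reads shared between paralogs could blur such ratios, so the coding sequences were aligned. Aligned coding bases were 67.5% identical between *CLN1* and *CLN2*, 68.5% between *CLB1* and *CLB2* and 64.8% between *CLB3* and *CLB4*, and *CLB5* and *CLB6* shared fewer than any of these. The longest identical stretch was 17 bases in the first 2 pairs and 15 bases in the others. No gene of the count files overlaps any of the 10. Strand was not used in counting, and *CLB1* faces *CLB6* tail to tail with 307 bases between their coding regions, and *CLB2* faces *CLB5* in the same way with 746 bases between them. Transcripts that run past their own end into a neighbour would be counted there, and how many do was not tested. *EMP46*, the next gene downstream of *SIC1* on the same strand at 241 bases, rose by 1.98 on the log2 scale (edgeR, adjusted p = 8.66e-05), and *BOS1* on its other side had a log2 fold change of 0.02 (adjusted p = 0.843).

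Among the partners of the cyclins, *CDC28*, the kinase gene itself, rose slightly, with 101 and 105 CPM in heat-shocked cells against 78.0 and 75.4 CPM in control cells (log2 fold change 0.42, edgeR, adjusted p = 0.00543). *CAK1*, whose product activates Cdc28, rose by 0.77 on the log2 scale. *CKS1*, a small Cdc28 subunit, fell by 0.31 and *SWE1*, the kinase that inhibits Clb-Cdc28, fell by 0.87. *FAR1*, the inhibitor of Cln-Cdc28 in the mating response, fell by 1.42, with 49.1 and 47.5 CPM in heat-shocked cells against 117 and 142 CPM in control cells. Of the 8 listed genes, 5 fell, 2 rose and *MIH1* did not pass the test, where 32.7% of all genes fell and 33.7% rose. With library totals in place of TMM, 4 of the 8 fell.

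Of the genes of SBF and MBF themselves, only that of the shared subunit passed the test. *SWI4*, the DNA-binding subunit of SBF, had a log2 fold change of 0.03 and *MBP1*, that of MBF, of 0.04 (edgeR, adjusted p = 0.825 and 0.805), and the inhibitor *WHI5* had -0.09 (adjusted p = 0.614). *SWI6*, the shared subunit, fell by 0.43 on the log2 scale. *NRM1*, a co-repressor of MBF that is also an MBF target, fell by 1.58, and *STB1* fell by 0.58. *XBP1*, a stress-induced repressor related to Swi4 and Mbp1, rose by 1.44, with 74.3 and 63.6 CPM in heat-shocked cells against 29.7 and 21.1 CPM in control cells, and *BCK2* rose by 0.33. Of the 10 listed genes, 4 fell, 2 rose and 4 did not pass the test, with a median of -0.10. Of all genes, 32.7% were lower and 33.7% higher.

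Genes that peak with *CLN1*, *CLN2*, *CLB5* and *CLB6* at G1/S fell with them. Of the 34 listed, 29 fell, 3 rose and 2 did not pass the test, beside 32.7% and 33.7% of all genes that fell and rose, and the median log2 fold change was -0.87. *SVS1* fell by 3.32 on the log2 scale. *RNR1*, the large subunit of ribonucleotide reductase, fell by 2.85, with 67.7 and 50.4 CPM in heat-shocked cells against 396 and 456 CPM in control cells. *POL30*, the sliding clamp of replication, fell by 2.07 on the log2 scale. Of the genes that rose, *ELO1*, a fatty acid elongase, was higher by 0.45 and *RFA1*, a subunit of the single-stranded DNA binding protein of replication, by 0.27 (edgeR, adjusted p = 0.0486).

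The *CLB2* cluster, genes expressed with *CLB1* and *CLB2* in mitosis, also fell. Of the 25 listed, 21 fell and 4 did not pass the test, beside 32.7% of all genes that fell, with a median of -0.61. *ACM1*, an inhibitor of the anaphase-promoting complex that was put on this list by hand, fell by 1.61 on the log2 scale. When in the cycle *ACM1* peaks was not tested. *CDC5*, the polo kinase, fell by 1.08 and *CDC20*, the activator of that complex, fell by 0.88. The 4 transcription factor genes listed for this cluster fell (3 of the 4 with library totals in place of TMM). Their log2 fold changes were -1.69 for *FKH1*, -0.85 for *HCM1*, -0.38 for *NDD1* and -0.32 for *FKH2*. *HCM1* also stands on the list of G1/S genes, so its fall is not particular to the mitotic wave.

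Genes that peak with *SIC1* at the M/G1 boundary moved in both directions. Of the 19 listed, 10 fell, 3 rose and 6 did not pass the test, beside 32.7% and 33.7% of all genes that fell and rose, with a median of -0.42. *PST1*, a cell wall protein gene, rose by 2.60 and *RME1*, a repressor of meiosis, by 0.71, while the chitinase gene *CTS1* fell by 1.19 and *SUN4* by 1.16. *CDC6*, the replication licensing factor, had a log2 fold change of -0.23 (edgeR, adjusted p = 0.0560). *SWI5*, the activator of *SIC1*, fell by 0.72 on the log2 scale and *ASH1* fell by 0.42. *YOX1* fell by 0.89, and *AZF1* rose by 0.70. Of the 7 listed regulators of this wave, 4 fell, 1 rose and 2 did not pass the test, among them *MCM1* (-0.10, edgeR, adjusted p = 0.332). Several genes stand on more than 1 of these lists.

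**Figure D5:**
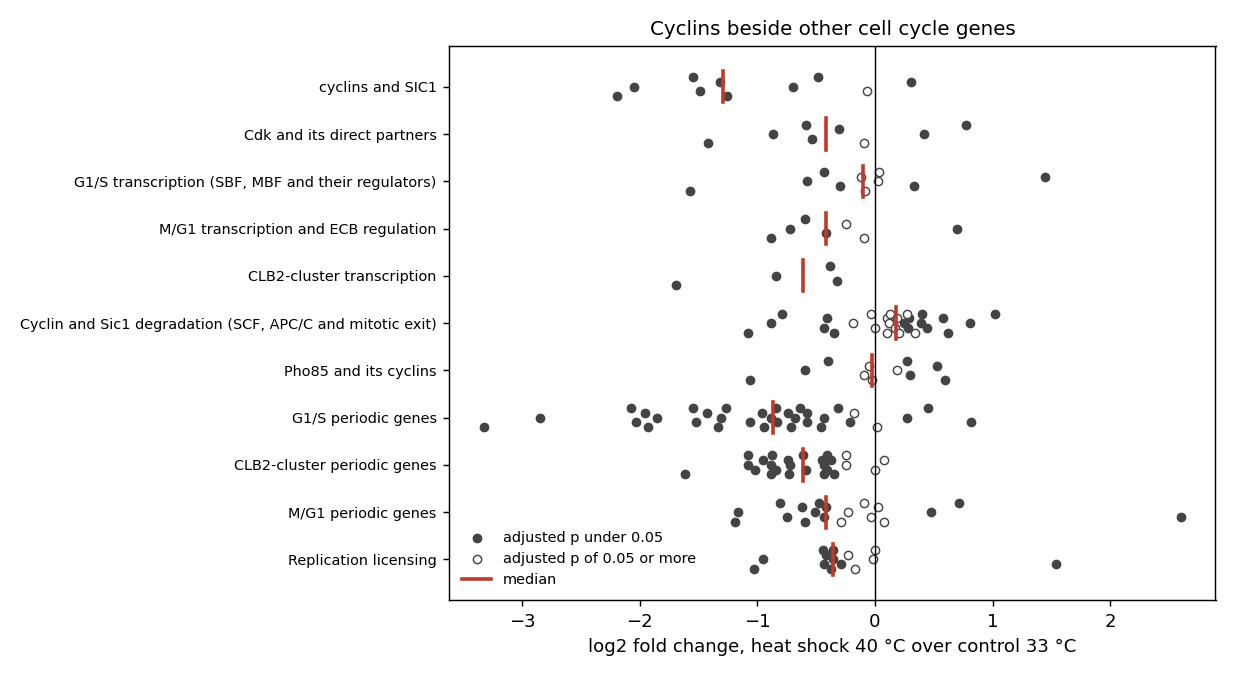
Log2 fold change, heat shock at 40 °C over control at 33 °C, of each gene of the cyclin set and of 10 lists of other cell cycle genes, with filled points for genes that passed the edgeR test, open points for the rest and a red line at each median. The median is -1.29 for the cyclins and *SIC1*, -0.87 for G1/S genes, -0.61 for the *CLB2* cluster and 0.18 for the cyclin degradation genes.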

How the data were processed

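The authors trimmed reads with Trim Galore 0.6.10, aligned them to R64 with STAR 2.7.10b and tallied them over annotated CDS with HTSeq 2.0.2, ignoring strand. The deposited counts are raw and unnormalised, and the 5 HTSeq tallies at the end of each table, between 5.91% and 6.60% of reads, were left out. The deposited TPM values, computed by the authors from counts and gene lengths, are stacked for all libraries in 1 column and were read as a score per library. Multiply aligned reads are not in the counts.

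The 4 *S. cerevisiae* libraries were fitted with edgeR 4.0.16 in R 4.3.3 (TMM, filterByExpr, glmQLFit and glmQLFTest) with no covariates, p-values being adjusted over all 5786 genes tested. CPM are scaled by TMM. The standard error is the size of a log2 fold change divided by the square root of F. Nothing beyond "biological replicate" says how replicates were grown, so p-values measure the spread between these libraries. By the labels, heat-shocked and control libraries share only a replicate number. Same-numbered libraries did deviate together (r = 0.51 over 5786 genes), which the fit with no covariates leaves out. With 2 libraries per condition, leaving out 1 assumes that the lone library varies like the pair. Alternatives were RLE, library totals, other filters, DESeq2 1.42.0, limma-voom 3.58.1, a replicate block, each library left out, and TPM ratios with a pseudocount of 1 or 0.1. The TPM ratio relative to the median gene was chosen after the data were seen. Coordinates, promoters and coding sequences come from the R64 assembly and annotation of RefSeq, in which 6014 of 6017 identifiers were found; sequences were compared with Biopython 1.88.

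The members and the gene lists, which were written by hand, were chosen with earlier results of these data known. The rule for named genes took the 10 members, a set of regulators by name, the neighbours where counting could be affected, and from each list the top 2 in each direction by fold change, provided that they passed the test and their conditions did not overlap. *RFA1*, *MIH1*, *POL30*, *PHO85*, *PCL6*, *CLG1*, *CDC14*, *MOB1*, *APC11*, *TEM1* and the marker genes given as examples were named after their values were seen. Some of the genes that this rule takes are not reported here. No set test was made. The libraries of the other 2 species were not used here.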

Additional observations from a re-analysis of the deposited data

How the results depend on the processing

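Log2 fold changes of all 10 genes kept their sign and their side of the threshold with RLE, library totals, other filters on low counts, DESeq2 and limma-voom. With the replicate number as a block, *CLN2* was at -2.05 and 8 members were lower and 1 higher, so no call of a member changed, and over all genes 2210 were higher and 2092 lower in place of 1947 and 1894. Same-numbered libraries deviated together (r = 0.51 over 5786 genes), but with 2 pairs this is only a hint. With each library left out in turn, *CLN1* ranged from -1.72 to -1.38, *CLN2* from -2.15 to -1.98, *CLB1* from -1.80 to -1.26, *CLB2* from -1.60 to -1.02, *CLB3* from -0.61 to -0.37, *CLB6* from -2.48 to -1.99 and *SIC1* from 0.26 to 0.33, members lower from 7 to 8 and members higher from 0 to 1. At an adjusted p under 0.01 in edgeR, 0 members were higher (1 at an unadjusted p under 0.05, and 1 with DESeq2 at an adjusted p under 0.05). As ratios of mean TPM with a pseudocount of 1, *CLN1* was at -1.25, *CLN2* at -1.76, *CLN3* at 0.18, *CLB3* at -0.23, *CLB4* at -0.42, *CLB5* at -1.02, *CLB6* at -1.73 and *SIC1* at 0.55, and with 0.1 *CLN1* was at -1.30, *CLN2* at -1.80, *CLN3* at 0.19, *CLB3* at -0.23, *CLB4* at -0.44, *CLB5* at -1.07 and *SIC1* at 0.56. Relative to the median gene on that scale no sign differed from that of edgeR. The change in the *CLB5* to *CLB6* ratio was 0.71 with a pseudocount of 1 and 0.87 with 0.1. With DESeq2, 1 gene of the G1/S transcription list, 6 degradation genes and 2 of *PHO85* and its cyclins were higher, in place of 2, 10 and 4, and the cause was not tested. With library totals, 28 of the G1/S genes were lower in place of 29. Depth limits *CLB6* most, at 88 reads in the lowest library.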

Other observations

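Of 28 listed genes of the ubiquitin ligases SCF and APC/C, which destroy cyclins and Sic1, and of mitotic exit, 10 were higher after heat shock, 6 lower and 12 did not pass the test (median log2 fold change 0.18), where 33.7% of all genes were higher and 32.7% lower. *CDC4*, the receptor that binds Sic1, rose by 0.40, *CDC34*, its ubiquitin-conjugating enzyme, by 0.28, and *CDC15*, the mitotic exit kinase, by 1.02, with 36.7 and 36.6 CPM in heat-shocked cells against 16.8 and 19.2 CPM in control cells (edgeR, adjusted p = 0.000153). *APC9* rose by 0.81 on the log2 scale. The 6 that fell were *CDC5* (log2 fold change -1.08), *CDC20* (-0.88), *CDC14* (-0.79), *MOB1* (-0.43), *APC11* (-0.41) and *TEM1* (-0.35). *CDH1*, the G1 activator of APC/C, had a log2 fold change of 0.20 (edgeR, adjusted p = 0.0740).

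Pho85, a second cyclin-dependent kinase, has cyclins of its own. Of the 11 listed genes, 4 rose, 3 fell and 4 did not pass the test, beside 33.7% and 32.7% of all genes that rose and fell. *PCL1* and *PCL2*, its G1 cyclins, fell by 1.07 and 0.60 on the log2 scale, and *CLG1* fell by 0.40. *PCL5* rose by 0.60, *PCL8* by 0.53, *PHO85* by 0.30 and *PCL6* by 0.27. Of 14 listed replication licensing genes, 9 fell (8 with library totals in place of TMM), 1 rose and 4 did not pass the test, beside 32.7% and 33.7% of all genes, with *MCM7* lower by 1.03 and *MCM3* by 0.95. The gene that rose was *TAH11*, the yeast Cdt1 gene, with 196 and 229 CPM in heat-shocked cells against 71.0 and 74.8 CPM in control cells (log2 fold change 1.54, edgeR, adjusted p = 2.65e-05).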
